A study of Mus musculus with 6 samples.

Results

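Taok2 is a gene of the mouse segment that matches human 16p11.2, and it is described here with its paralogs Taok1 and Taok3 and with the kinases of the JNK cascade, Map2k4, Map2k7, Mapk8, Mapk9 and Mapk10. These 8 genes were taken by symbol from 45476 named lines of a gene count table, and all 8 passed the filter on low counts that left 15401 genes for testing. Total RNA from homogenised prefrontal cortex was sequenced, and all mice were 8 weeks old. Mice heterozygous for the 16p11.2 duplication (3 libraries, called duplication 1 to 3) were set against wild type mice (3 libraries, called wild type 1 to 3). Both groups share the C57BL/6 background to which the line, first made on a hybrid C57BL/6N and 129Sv background, was backcrossed. The duplication is carried by every cell of the animal and covers many genes besides Taok2, so a difference between the groups cannot be assigned to Taok2 alone. The labels do not say that the libraries came from separate animals or litters, and the spread that the p-values rest on may be technical.

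TAO kinases are serine/threonine kinases of the STE20 family that act at the top of stress-activated kinase cascades. Below them, MKK4 and MKK7, encoded by Map2k4 and Map2k7, phosphorylate and activate the c-Jun N-terminal kinases JNK1, JNK2 and JNK3, encoded by Mapk8, Mapk9 and Mapk10. In cortical pyramidal neurons TAOK2 is known for its part in the growth of basal dendrites downstream of the guidance receptor neuropilin 1, and JNKs phosphorylate microtubule-associated proteins as well as the transcription factor c-Jun.

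The libraries held 14891890 to 21872271 counts in duplication and 12988457 to 14369271 in wild type mice, and levels are given as CPM, a gene's count divided by the TMM-scaled size of its library and brought to a common total. Cortical neuron markers were abundant, with summed levels of the 5 excitatory neuron markers at 2021 to 2134 CPM in duplication and 1993 to 2509 CPM in wild type libraries, while the 4 striatal markers reached 31.3 and 42.6 CPM at most. The 5 meningeal markers summed to 24.9 to 52.7 CPM in duplication and 18.3 to 26.7 CPM in wild type libraries, with 5 of 5 higher and 4 at an unadjusted p under 0.05. The 4 microglial markers summed to 206 to 214 CPM in duplication and 179.7 to 205 CPM in wild type libraries, which do not overlap, and the 4 astrocyte markers to 835 to 922.5 CPM and 718 to 841 CPM. All 4 markers were higher in each of these 2 lists, with 0 microglial and 1 astrocyte marker at that p. Of the 5 excitatory neuron markers 1 was higher, and 2 were at that p in either direction. The 4 oligodendrocyte markers summed to 921 to 1226 CPM in duplication and 1012 to 1744 CPM in wild type libraries. Of these, 0 were higher and 0 were at that p. Over all tested genes, 7.07% were higher and 12.2% lower at that p. The part of these cell types in the values of the kinases was not tested. Transcripts annotated as TEC (clusters awaiting experimental proof, many of them within introns) or sense intronic had a mean level of -0.44, -0.43 and -0.12 in duplication 1 to 3, against 0.47, -0.0004 and 0.53 in wild type 1 to 3, in log2 units around the mean of the 6 libraries. Wild type 2 thus lay nearer the duplication libraries than the other wild type libraries did. In bulk tissue, fewer cells of a type and less RNA per cell cannot be told apart.

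Taok2 was higher in the duplication cortex, and it was the only one of the 8 kinases whose 2 groups did not overlap. Over all tested genes the groups did not overlap for 11.7% with duplication higher and for 10.5% with duplication lower. Such a count therefore does not set the 8 kinases apart from other genes. Taok2, on the minus strand of mm10 chromosome 7 from 126865678 to 126884703, had 227, 294 and 234 CPM in duplication 1 to 3, against 161, 147 and 152 CPM in wild type 1 to 3. Every duplication library lay above every wild type library, and duplication 2 stood highest. The means were 251 ± 36.7 CPM in duplication and 154 ± 7.13 CPM in wild type mice (SD, n = 3 each). The fold was 1.64 with a 95% interval of 1.40 to 1.91, a log2 fold change of 0.71 ± 0.10 (SE).

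This difference did not pass the edgeR quasi-likelihood test when adjusted over all genes (adjusted p = 0.128, unadjusted p = 4.95e-05), where 0.0% of 15401 genes passed as higher. DESeq2 called Taok2 higher (adjusted p = 7.66e-07), as it did 0.292% of genes. In edgeR it was also called without a filter on low counts and without wild type 2, where 0.655% and 4.65% of genes were called higher (3.18% and 10.7% lower). With the TEC and sense intronic level as a covariate its adjusted p was 0.9996, at a log2 fold change of 0.70 ± 0.19, and 0 genes passed over all genes. At an unadjusted p under 0.05, 1 of the 8 kinases was higher and 0 were lower, against 7.07% and 12.2% of all genes. Groups did not overlap, with duplication higher, for 11.7% of all genes.

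Among the duplication libraries, the second had the largest Taok2 value, as it did for the listed genes of the duplicated segment together. Against the wild type mean, Taok2 was 1.48-fold in duplication 1, 1.91-fold in duplication 2 and 1.52-fold in duplication 3. The median level of the 23 tested segment genes, Taok2 included, was 0.23, 0.64 and 0.23 in the same libraries. These levels are in log2 units around each gene's mean over the 6 libraries. Without duplication 2 the log2 fold change was 0.59, against 0.71 with all libraries. A log2 value of 0.585, which 3 gene copies against 2 would give, lies inside the 95% interval of 0.49 to 0.93 from all libraries. Among the 23 tested genes listed for the duplicated segment, Taok2 ranked 15th by log2 fold change, with a median over these genes of 0.75. It came next below Ypel3 at 0.71 ± 0.11 and next above Slx1b at 0.69 ± 0.13.

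**Figure D1:**
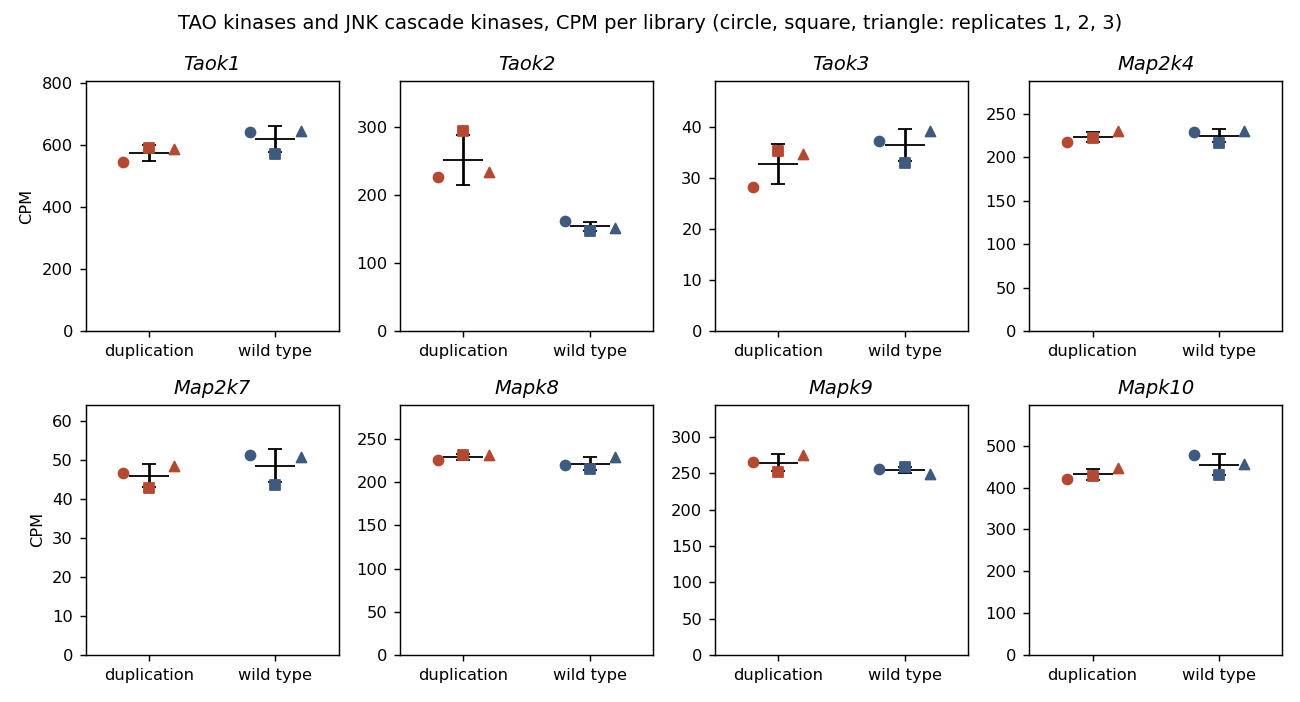
CPM of each kinase in every library, duplication left and wild type right; circles, squares and triangles are replicates 1, 2 and 3, and the bars give mean and SD (n = 3 each). For Taok2 the duplication libraries sit between 227 and 294 CPM, above the wild type libraries at 147 to 161 CPM, and the groups overlap for the other 7 genes.

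The reads of the TAO kinases and of the JNKs can be told apart by sequence, which bears on whether Taok2 reads could be counted for a paralog. In GENCODE M21 transcripts of build GRCm38, 0 of 9252 distinct 50-base runs of Taok2 and 0 of 12371 of Taok1 occurred in a transcript of another gene. The longest identical run between the coding sequences of Taok1 and Taok2 was 23 bases, from coding base 682 to 704 in both (transcripts Taok1-201 and Taok2-202). It is shown in capitals, 5′ to 3′ on the coding strand, with 15 bases on either side in lower case.
Taok1: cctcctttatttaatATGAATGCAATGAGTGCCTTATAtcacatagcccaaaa
Taok2: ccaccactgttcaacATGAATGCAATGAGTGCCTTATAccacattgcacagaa
Taok3 shared at most 17 bases with either paralog, and its runs with Taok2 are given in the same way, with coding bases 55 to 71 of Taok2 and 43 to 59 of Taok3 in capitals.
Taok2: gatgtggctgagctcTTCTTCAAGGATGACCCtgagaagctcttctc
Taok3: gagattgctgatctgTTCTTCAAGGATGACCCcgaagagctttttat
For the JNK genes the longest shared coding run was 23 bases in each of the 3 pairs, shown here for Mapk8 (bases 595 to 617) and Mapk10 (bases 799 to 821).
Mapk8: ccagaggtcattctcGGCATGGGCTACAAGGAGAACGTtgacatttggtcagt
Mapk10: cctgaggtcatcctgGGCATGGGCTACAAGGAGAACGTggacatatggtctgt
The longest shared run between Map2k4 and Map2k7 was 12 bases. Of the other kinases, Map2k4, Mapk9 and Mapk10 had 0 runs of 50 bases in another gene, Taok3 had 15 of 11248 (in Spata6) and Mapk8 had 2 of 11779 (in Ttc13). Map2k7 shared far more, because the predicted gene Gm49320 lies on the same strand and shares 1349 exonic bases and 32.8% of its 50-base runs with it, so the value of Map2k7 is uncertain. Taok1 shares 94 exonic bases with Abhd15 on the opposite strand, and whether reads were counted by strand is not stated in the labels or file headers. Taok2 and Mapk9 overlap no other annotated gene.

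The paralogs of Taok2 did not pass in edgeR, where 0 of 15401 genes passed, so this does not set them apart from Taok2. DESeq2, which called Taok2 higher, called neither paralog (adjusted p = 0.599 for Taok1 and 0.620 for Taok3). Taok1 encodes the TAO kinase also known as MARKK, which phosphorylates microtubule affinity-regulating kinases (chromosome 11, 77529162 to 77607815). It had 543.9, 589.5 and 587.5 CPM in duplication 1 to 3, against 642.1, 571.5 and 644.5 CPM in wild type 1 to 3. Wild type 2 fell among the duplication libraries, so the groups overlapped, and the log2 fold change was -0.11 ± 0.07 (95% interval -0.26 to 0.04; edgeR, adjusted p = 0.385). Taok3 (chromosome 5, 117120129 to 117275219) had 28.2, 35.3 and 34.7 CPM in duplication 1 to 3, against 37.3, 33.0 and 39.3 CPM in wild type 1 to 3. Duplication 1 was the lowest library and the groups again overlapped, with a log2 fold change of -0.16 ± 0.11 (interval -0.40 to 0.08; adjusted p = 0.419). Both intervals leave out 0.585. With the TEC and sense intronic level as a covariate the values of Taok1 and Taok3 turned to 0.09 and 0.14, and neither passed, in a fit where 0 genes did.

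**Figure D2:**
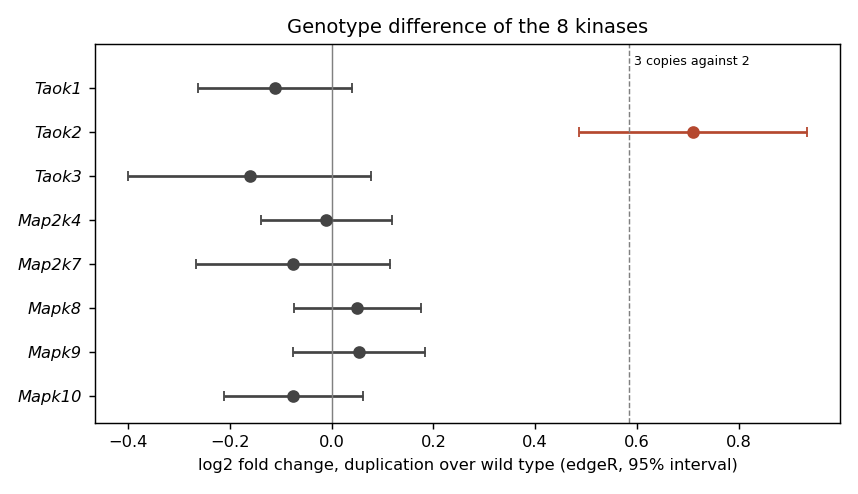
Log2 fold change of duplication over wild type for the 8 kinases from edgeR, with 95% intervals; the dashed line marks 0.585, the value of 3 copies against 2. The interval of Taok2 lies to the right of 0 and holds the dashed line, while those of the other 7 genes hold 0 and end left of the dashed line.

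Ratios within a library, which do not depend on how libraries are scaled, set Taok2 apart from its paralogs in the same way. These ratios and the shares below use the same Taok2 counts as above, so they are not separate evidence of its difference. The log2 CPM of Taok2 minus that of Taok1 was -1.26, -1.01 and -1.33 in duplication 1 to 3, against -1.99, -1.95 and -2.08 in wild type 1 to 3. The groups did not overlap, and their means differed by 0.81 (exact permutation test over samples, two-sided, p = 0.1, the smallest that 3 against 3 allows). Taok2 minus Taok3 was 2.999, 3.05 and 2.75 in duplication 1 to 3, against 2.11, 2.16 and 1.95 in wild type 1 to 3, a difference of 0.86 with the same exact p of 0.1. Leaving out any 1 library kept these differences between 0.71 and 0.88 for Taok1 and between 0.80 and 0.95 for Taok3.

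Per kilobase of exon, Taok2 made up a larger share of TAO kinase signal in duplication mice. Its share was 34.4%, 38.4% and 33.2% in duplication 1 to 3, against 23.9%, 24.4% and 22.7% in wild type 1 to 3, a difference of 11.6 percentage points between the means (exact permutation test, p = 0.1). Taok1 remained the larger part in every library, at 57.8% to 62.7% in duplication and 71.0% to 72.35% in wild type mice, and Taok3 held 3.58% to 4.12% and 4.56% to 4.91%. With the length of the longest transcript in place of all exons the share of Taok2 averaged 48.35% in duplication and 34.7% in wild type mice, and the mean of Taok1 was 44.6% in duplication and 56.1% in wild type mice. By that measure Taok2 exceeded Taok1 in duplication 1 and 2 but not in duplication 3, and in no wild type library. The summed CPM of the 3 genes was 858 ± 59.8 in duplication and 809.5 ± 49.9 in wild type mice (SD, n = 3 each), and the libraries of the groups overlapped.

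**Figure D3:**
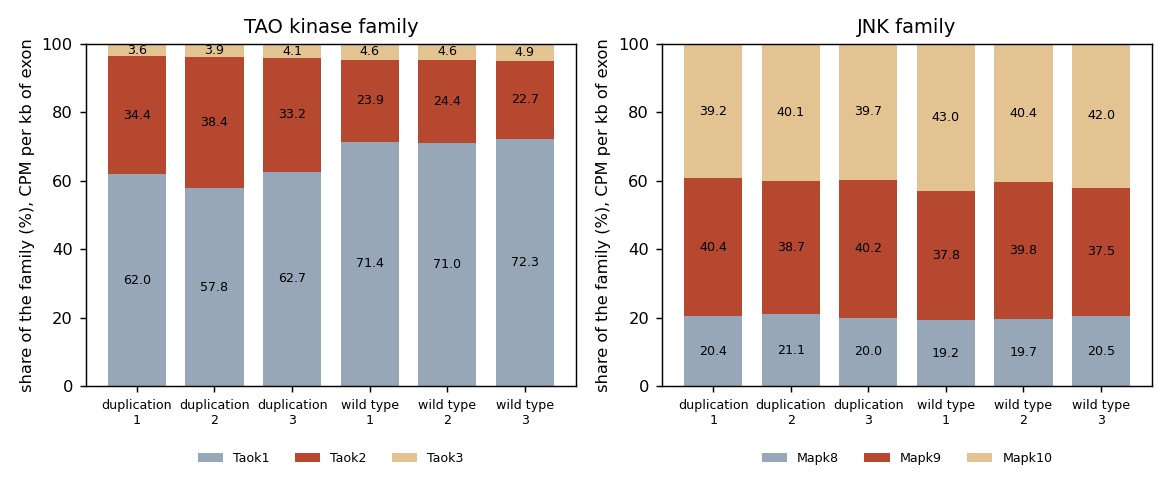
Share of each gene in the length-scaled signal of its family (CPM per kilobase of exon, in percent), by library. The Taok2 part covers 33.2% to 38.4% in duplication and 22.7% to 24.4% in wild type libraries, while the JNK parts differ by a few percentage points.

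The kinases directly above JNK were at similar levels in both groups. Map2k4 (chromosome 11, 65688243 to 65788297), whose product MKK4 acts on both JNK and p38, had 217.7, 221.9 and 229.8 CPM in duplication 1 to 3, against 228.5, 216 and 230.1 CPM in wild type 1 to 3. The libraries of the groups were intermixed, with a log2 fold change of -0.01 ± 0.06 (interval -0.14 to 0.12; edgeR, adjusted p = 0.934). Map2k7 (chromosome 8, 4238740 to 4247897), whose product MKK7 acts on JNK alone, had 46.7, 42.7 and 48.5 CPM in duplication 1 to 3, against 51.3, 43.6 and 50.7 CPM in wild type 1 to 3. The 2 libraries numbered 2 were lowest in their groups, and the log2 fold change was -0.08 ± 0.08 (interval -0.27 to 0.11; adjusted p = 0.634). The log2 ratio of Map2k4 to Map2k7 was 2.28 ± 0.08 in duplication and 2.21 ± 0.08 in wild type mice (SD, n = 3 each), a difference of 0.07 that did not exceed the spread (exact permutation test, two-sided, p = 0.4).

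None of the JNK genes passed in edgeR, where 0 of 15401 genes did. DESeq2 called none of them either (adjusted p = 0.853 for Mapk8, 0.843 for Mapk9 and 0.722 for Mapk10). Their 95% intervals from edgeR on the log2 scale ran from -0.21 at the lowest to 0.18 at the highest. Mapk8, encoding JNK1 (chromosome 14, 33377898 to 33447158), had 226, 232 and 231 CPM in duplication 1 to 3, against 220.0, 215.5 and 229.5 CPM in wild type 1 to 3. Wild type 3 fell within the range of the duplication libraries, and the log2 fold change was 0.05 ± 0.06 (interval -0.07 to 0.175; edgeR, adjusted p = 0.631). Mapk9, encoding JNK2 (chromosome 11, 49846751 to 49886421), had 265, 252 and 275 CPM in duplication 1 to 3, against 255.9, 257.8 and 249.5 CPM in wild type 1 to 3. Duplication 2 lay among the wild type libraries, and the log2 fold change was 0.05 ± 0.06 (interval -0.08 to 0.18; adjusted p = 0.627).

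Mapk10, encoding JNK3, the isoform found mainly in the nervous system (chromosome 5, 102907948 to 103211334), was the most abundant of the JNK genes by CPM. It had 421, 428 and 446 CPM in duplication 1 to 3, against 478.5, 429 and 457.5 CPM in wild type 1 to 3. Wild type 2 again fell among the duplication libraries, and the log2 fold change was -0.08 ± 0.06 (interval -0.21 to 0.06; edgeR, adjusted p = 0.511). Its share of the length-scaled JNK signal was 39.2%, 40.1% and 39.7% in duplication 1 to 3, against 43.0%, 40.4% and 42.0% in wild type 1 to 3. The shares did not overlap, with a difference of -2.12 percentage points between the means (exact permutation test, two-sided, p = 0.1), and the gap between the nearest libraries, duplication 2 and wild type 2, was small beside the spread among wild type libraries. The summed CPM of the 3 JNK genes was 925.5 ± 23.2 in duplication and 931 ± 26.4 in wild type mice (SD, n = 3 each).

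In the order of the 8 kinases by level, only Taok2 and Mapk8 changed places with no overlap between them in either group. In wild type mice, in CPM per kilobase of exon, Taok1 (49.9 ± 3.34) and Map2k4 (48.2 ± 1.66) came first and their libraries overlapped. They were followed by Mapk10 (40.9 ± 2.22), Mapk9 (37.5 ± 0.64), Mapk8 (19.4 ± 0.62), Taok2 (16.5 ± 0.77), Map2k7 (12.7 ± 1.11) and Taok3 (3.27 ± 0.29), with no overlap between neighbours from Map2k4 down. The order of Mapk10 and Mapk9 was not kept in duplication mice, where they overlapped at 38.8 ± 1.12 and 38.9 ± 1.72. In duplication mice Taok2 was at 27.0 ± 3.94 CPM per kilobase (24.3 to 31.5), above Mapk8 at 20.1 ± 0.30 (19.7 to 20.3), whereas in wild type mice it lay at 15.8 to 17.3, below Mapk8 at 18.8 to 20.1. This exchange of places was also seen with the longest transcript as the length, at 50.4 ± 7.37 and 39.9 ± 0.59 in duplication and 30.8 ± 1.43 and 38.5 ± 1.24 in wild type mice for Taok2 and Mapk8. The order of the most abundant genes did depend on the length used, and with the longest transcript Mapk10 came first in wild type mice at 63.2 ± 3.43 and lay beside Map2k4 in duplication mice, at 59.95 ± 1.73 and 60.4 ± 1.67.

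Genes whose log2 CPM followed that of Taok2 most closely over the 6 libraries were E2f5 on chromosome 3 (Pearson r = 0.99, a transcription factor of the cell cycle), Tbc1d10b on chromosome 7 (0.99), the interval genes Kctd13 (0.99) and Slx1b (0.99), and Man1b1 on chromosome 2 (0.98). Outside the interval list, Them4 and Fhad1 came next at 0.98 and 0.97. Tbc1d10b is not in the interval list, and whether it lies within the duplicated segment was not tested. All values share the same 6 libraries and their scaling, and the Taok2 values fall into 2 separate groups, so these are descriptions only. The size of the difference varied among these genes, with log2 fold changes of 0.15 ± 0.10 for E2f5, 0.12 ± 0.06 for Man1b1, 0.62 ± 0.12 for Tbc1d10b and 0.75 ± 0.13 for Kctd13, and none passed in edgeR.

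Around the 8 kinases, 8 lists of genes of the same pathways held 70 genes, of which 67 were tested. In edgeR 0 passed when adjusted over all genes. At an unadjusted p under 0.05, 0 were higher and 10 (14.9%) were lower, against 7.07% and 12.2% of all tested genes. The libraries of the groups did not overlap for 2 genes (2.99%) that were higher and 6 (8.96%) that were lower, against 11.7% and 10.5% of all tested genes. Their median was -0.06 on the log2 scale, beside 0.005 over all tested genes. DESeq2 called 0 higher and 3 lower, against 0.292% and 1.55% of all genes.

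**Figure D4:**
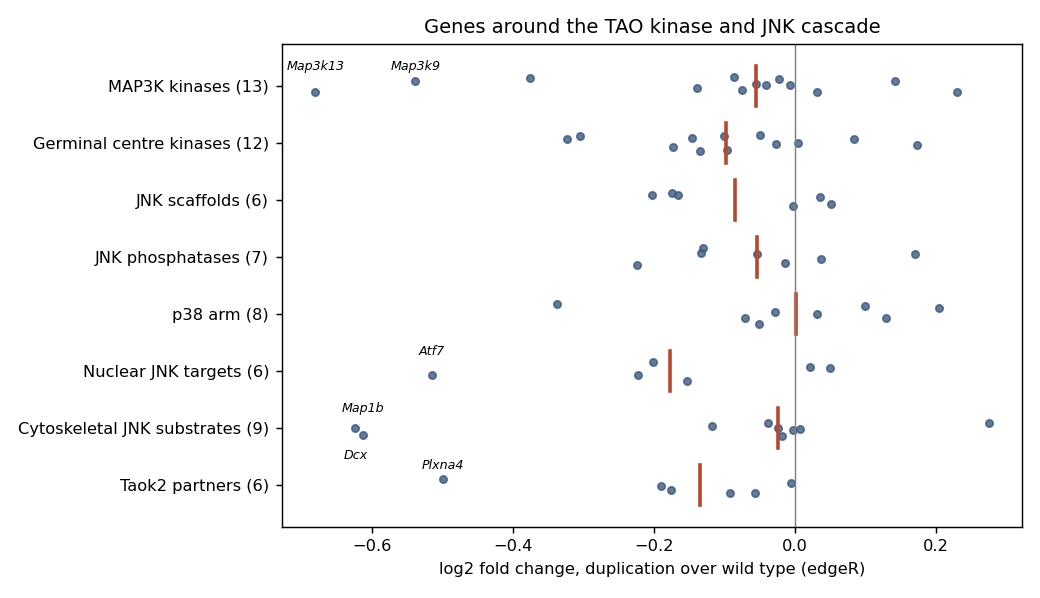
Log2 fold change of duplication over wild type (edgeR) for each tested gene of the 8 lists, one point per gene, with the number tested in brackets and the median of each list as a red line. Most genes lie within 0.2 of 0, and the genes named in the plot lie below -0.45.

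Mixed-lineage and related MAP3K kinases, which stand beside the TAO kinases above MKK4 and MKK7, included Map3k13, the lowest of the 67 genes by log2 fold change. Of 13 MAP3K genes tested, 0 were higher and 2 were lower at an unadjusted p under 0.05, against 7.07% and 12.2% of all tested genes. The median of the list was -0.06. Map3k13, encoding the leucine zipper kinase LZK, had 12.7, 18.3 and 17.3 CPM in duplication 1 to 3, against 29.1, 17.8 and 29.96 CPM in wild type 1 to 3, a log2 fold change of -0.68 ± 0.20 (edgeR, adjusted p = 0.174; DESeq2, 0.0406). Map3k9, encoding the mixed-lineage kinase MLK1, had 50.7, 62.2 and 59.0 CPM in duplication 1 to 3, against 96.5, 61.7 and 91.3 CPM in wild type 1 to 3, a log2 fold change of -0.54 ± 0.15 (adjusted p = 0.174; DESeq2, 0.0341). In both genes wild type 2 lay within the range of the duplication libraries and wild type 1 and 3 lay well above it. The groups did not overlap for Map3k6, which was at 0.23 ± 0.16, and for Map3k12, encoding the dual leucine zipper kinase DLK, at -0.09 ± 0.06. Over all tested genes they did not overlap for 11.7% (higher) and 10.5% (lower). Map3k6 and Map3k12 are named because of that lack of overlap, after their values were seen. Map3k11, encoding MLK3, was at -0.0065 ± 0.09, the value nearest to 0 in the list.

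The other upstream kinases and the scaffolds showed smaller values. Of 12 germinal centre kinases, relatives of the TAO kinases in the STE20 family, 0 were higher and 2 were lower at an unadjusted p under 0.05. Over all tested genes 7.07% were higher and 12.2% lower at that p. The median of the list was -0.10. Tnik, a kinase of the postsynaptic density, had 215.9, 240.3 and 256.6 CPM in duplication 1 to 3, against 309.5, 255 and 316 CPM in wild type 1 to 3, a log2 fold change of -0.30 ± 0.10 (edgeR, adjusted p = 0.175). The other gene at that p was Map4k4, at -0.15 ± 0.06, with no overlap between the groups. Stk25, at 0.08 ± 0.05, was higher with no overlap. Lack of overlap was seen for 10.5% (lower) and 11.7% (higher) of all tested genes. Map4k4 and Stk25 are named after their values were seen. Map4k1, a kinase of blood cells, was at -0.32 ± 0.38 with at most 1.135 CPM in every library, and Stk4, the Hippo kinase MST1, at 0.0049 ± 0.09. Among the 6 tested JNK scaffolds (median -0.08), 1 was lower at that p, the axonal transport scaffold Mapk8ip3 (JIP3) at -0.20 ± 0.09. Sh3rf1, the scaffold POSH, was at -0.17 ± 0.08 and Spag9 (JIP4) at -0.0026 ± 0.06.

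Phosphatases and the parallel p38 arm had medians near 0. Of 7 phosphatases listed for the JNK pathway (median -0.05), 1 was lower at an unadjusted p under 0.05, Dusp8. It had 80.55, 83.0 and 83.7 CPM in duplication 1 to 3, against 109.1, 84.0 and 95.7 CPM in wild type 1 to 3. Its log2 fold change was -0.22 ± 0.09 (edgeR, adjusted p = 0.232). Its groups did not overlap, although wild type 2 lay close to duplication 3. Of all tested genes, 12.2% were lower at that p and 10.5% were lower without overlap. Dusp10 was at 0.17 ± 0.26 and Dusp19 at -0.01 ± 0.10. Of 8 tested p38 genes 0 were past that p in either direction, and the median was 0.0022. Map2k3, which encodes the p38 activator MKK3 and is a known TAO kinase substrate, was at -0.34 ± 0.22, Mapkapk3, a kinase below p38, at 0.20 ± 0.28, and Mapk14, encoding p38α, at -0.03 ± 0.06.

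Nuclear targets of JNK, its cytoskeletal substrates and partners of TAOK2 made up 6, 9 and 6 of the 67 tested genes. They included 4 of the 10 pathway genes that were lower at an unadjusted p under 0.05, where 12.2% of all tested genes were lower. Of 6 nuclear targets (median -0.18), 1 was lower at that p, Jun, encoding c-Jun, the substrate that gave the JNKs their name. Jun had 34.7, 36.3 and 34.7 CPM in duplication 1 to 3, against 42.0, 40.0 and 39.5 CPM in wild type 1 to 3, a log2 fold change of -0.20 ± 0.07 (edgeR, adjusted p = 0.179; DESeq2, 0.323). Every duplication library lay below every wild type library, wild type 2 included. The groups also did not overlap for Elk1, an ETS factor, at -0.15 ± 0.07. Of all tested genes, 10.5% were lower without overlap. Jun and Elk1 are named after their values were seen. Atf7, a CRE-binding factor, was at -0.51 ± 0.24, Junb, an AP-1 subunit, at -0.22 ± 0.16 and Atf2, the JNK and p38 target factor, at 0.02 ± 0.06. Of 9 cytoskeletal substrates (median -0.02), 2 were lower. Map1b, a microtubule-associated protein of growing axons, had 1249, 1642 and 1727 CPM in duplication 1 to 3, against 2715, 1689 and 2655 CPM in wild type 1 to 3, a log2 fold change of -0.61 ± 0.18 (edgeR, adjusted p = 0.174; DESeq2, 0.0194). Dcx, the microtubule-binding protein doublecortin, had 20.4, 21.0 and 22.8 CPM in duplication 1 to 3, against 44.0, 22.2 and 33.0 CPM in wild type 1 to 3 (log2 fold change -0.62 ± 0.20). Stmn1, a tubulin-sequestering stathmin, was at -0.0022 ± 0.08. In both Map1b and Dcx, wild type 2 lay within the range of the duplication libraries.

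Of the 6 tested partners of TAOK2, all 6 had negative values, where 7549 of 15401 genes did, and 1 was past an unadjusted p of 0.05. Their median was -0.13, and 0.02 with the TEC and sense intronic level as a covariate. That gene, Plxna4, encoding the semaphorin co-receptor plexin A4, had 116, 148 and 158 CPM in duplication 1 to 3, against 229.8, 151 and 216 CPM in wild type 1 to 3, a log2 fold change of -0.50 ± 0.16 (edgeR, adjusted p = 0.179). Lats2, a Hippo pathway kinase, was at -0.19 ± 0.10, and its libraries did not overlap between the groups. Of all tested genes, 12.2% were lower at an unadjusted p under 0.05 and 10.5% were lower without overlap. Rhoa, the small GTPase of actin dynamics, was at -0.0049 ± 0.06.

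The genes with the most negative values shared 1 pattern over the libraries. Map3k13, Map3k9, Map1b, Dcx, Atf7 and Plxna4 were each highest in wild type 1 and 3, the libraries with the highest TEC and sense intronic level, and wild type 2 lay with the duplication libraries. When edgeR was given that level as a covariate, their log2 fold changes were 0.16 ± 0.27, 0.10 ± 0.20, 0.21 ± 0.18, 0.21 ± 0.28, 0.59 ± 0.29 and 0.21 ± 0.17 in the same order. Of the 10 pathway genes that were lower at an unadjusted p under 0.05, 8 had a positive value in that fit and 0 passed. Over all genes 0 passed in that fit, so passing could not set these 10 apart. The level was lower in every duplication library than in every wild type library, so the fit cannot fully tell it apart from genotype. Tnik, Mapk8ip3 and Dusp8 were among those 8, at 0.09 ± 0.11, 0.13 ± 0.10 and 0.06 ± 0.14. The 2 that stayed negative were Jun, at -0.20 ± 0.13, and Map4k4, at -0.07 ± 0.11. Taok2 was at 0.70 ± 0.19 in that fit. Without wild type 2, edgeR called 10 of the 67 pathway genes lower and 0 higher, against 10.7% and 4.65% of all genes.

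**Figure D5:**
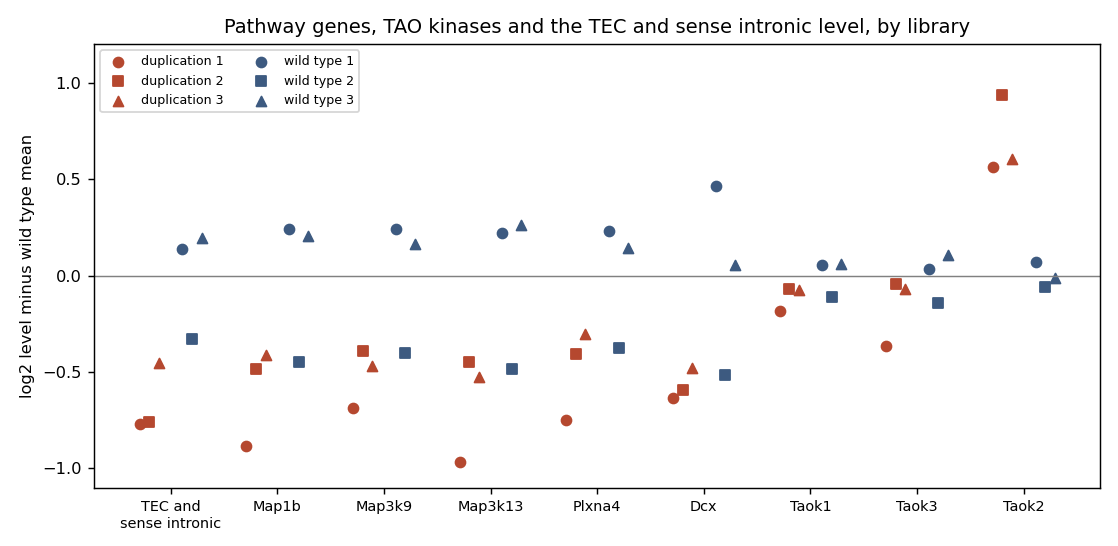
Log2 level of each library minus the wild type mean for the TEC and sense intronic class, for 5 pathway genes and for the TAO kinases; red is duplication, blue is wild type, and circles, squares and triangles are replicates 1, 2 and 3. For the 5 pathway genes the wild type 2 square lies among the red points, while for Taok2 it lies with the other wild type libraries.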

How the data were processed

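The authors trimmed, aligned and counted reads with cutadapt, TopHat2 and HTSeq with build mm10, per the submitters' processing notes, without versions; the annotation and strand setting are not stated in the labels or file headers. Libraries were Trizol-extracted, stranded and depleted of ribosomal RNA, per the labels' protocols. The deposited values are raw counts per gene, not normalized. In the deposited table, names and counts are out of step: 45807 lines of counts carry 45801 names, and the offset rises from 0 to 6 in 6 steps. Names were moved by that offset, which affects 65.1% of names. Names within 25 of a step and 25 names turned into date numbers were left out, so Septin7 was not analysed here. In windows of 250 lines on either side of each of the 8 kinases, the correlation between log counts and whether a name is protein-coding was highest at the offset used. Unnamed lines held 0.902% to 0.948% of a library's counts and were left out.

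The test was that of edgeR 4.0.16, run in R 4.3.3 (TMM, filterByExpr, quasi-likelihood F-test, Benjamini-Hochberg adjusted p under 0.05 over 15401 genes). Fold changes are duplication over wild type. On simulated counts it recovered 61% of 100 genes changed 1.5-fold and 89% of 100 changed 2-fold, with 10 false calls. The simulation drew each gene independently and held no library set apart like wild type 2, so it does not give the power in these data. CPM uses TMM-scaled library sizes and log2 CPM a prior count of 2. Positions, lengths and classes come from GENCODE M21, which held 91.8% of used names. DESeq2 1.42.0, limma 3.58.1 and other normalizations, filters and libraries were alternatives. No molecular identifiers are mentioned in the labels, so reads may include PCR copies. Within a group, pairs of libraries differed by more than sampling noise (mean chi-square per gene 2.69 to 15.6). Members and lists were chosen with earlier results of these data known. Named genes are the 8 kinases, the 2 genes of each list with the largest and the 1 with the smallest absolute log2 fold change, the neighbours of Taok2 in the interval order and the 5 genes most like it, among all genes and outside the interval; Map3k6, Map3k12, Map4k4, Stk25, Jun and Elk1 were named after their values were seen.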

Additional observations from a re-analysis of the deposited data

How the results depend on the processing

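Taok2 stayed higher in all 17 alternatives with re-aligned names, at log2 fold changes of 0.59 to 0.78, and passed over all genes in 3 of them: 0.72 without a filter on low counts, 0.71 with DESeq2 and 0.68 without wild type replicate 2. In these 3, and in no other, 1 of the 8 kinases was called (0 to 1 when leaving out 1 library). Genes called higher and lower over all genes were 0 and 0 in the fit reported, 173 and 841 without the filter, and 45 and 238 with DESeq2. Leaving out 1 library gave 0 to 731 higher and 0 to 1677 lower, the highest counts without wild type replicate 2. Limma-voom called 0 and 0, while 1089 and 1877 genes had an unadjusted edgeR p under 0.05.

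The labels do not say whether replicate numbers pair the samples. Correlations of deviations were 0.102, 0.0628 and 0.311 between same-numbered libraries. Duplication 2 and 3 correlated best with their own number, while duplication 1 correlated best with wild type 2 (0.157). With 3 libraries per group these values cannot settle whether the samples were paired. The replicate block gave 6 genes higher and 1 lower, and Taok2 at 0.70 (adjusted p = 0.105); it changed no call among the 8 kinases.

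Several values below 0 changed sign, not only those nearest to it. Map2k4 was at 0.015 with upper-quartile factors, 0.0038 with library size only, and -0.041 to 0.0088 when leaving out 1 library. With the TEC and sense intronic level as a covariate Taok1, Taok3, Map2k4, Map2k7 and Mapk10 were at 0.087, 0.14, 0.11, 0.20 and 0.080. In the fit reported they were at -0.11, -0.16, -0.01, -0.08 and -0.08, so their signs depend on that covariate. None was past the threshold with the covariate, in a fit where 0 genes passed over all genes. The cause was not tested. Names as deposited gave Taok3 0.15, a Map2k4 to Map2k7 difference of -0.0098 and a Mapk10 share of 0, because those lines hold counts of other genes. The difference in Mapk10 share was -2.81 to -1.52 points when leaving out 1 library, that in Taok2 share 10.1 to 12.7 points, and that of Map2k4 minus Map2k7 0.02 to 0.11.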

Other observations

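Read without moving the names, the deposited table gives other values for 4 of the 8 kinases. The line named Mapk10, a gene abundant in cortex, holds 0 counts in each of the 6 libraries, against 22628 counts in duplication and 18441 in wild type libraries together after re-alignment. The line named Taok2 holds 5527 counts in duplication and 2505 in wild type libraries, against 13009 and 6226 after re-alignment. Its log2 fold change is 0.81 ± 0.15, but after re-alignment its counts belong to Doc2a, another gene of the duplicated segment. That value therefore does not describe Taok2. The line named Taok3 holds 5589 counts in duplication and 3890 in wild type libraries, against 1690 and 1480, and that named Map2k7 holds 4789 and 3719, against 2423 and 1965. Taok1, Map2k4, Mapk8 and Mapk9 lie before the first step, and their counts are the same either way.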
